A study of Mus musculus with 9 samples.

Results

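Steroid-metabolizing enzymes make, convert and inactivate androgens and estrogens inside the cells that respond to them. Expression of such enzymes was examined here in mesenchymal cells of the fetal mouse prostate exposed to estradiol (E2). The group was defined by a list of 10 gene symbols, and 7 of these, Akr1c14, Akr1c18, Srd5a3, Cyp7b1, Sult1e1, Hsd17b2 and Hsd17b11, were measured among 19938 genes in all. Srd5a1, Srd5a2 and Cyp19a1 were not analysed here. Each of the 7 genes had 1 probeset, so no choice between probesets had to be made.

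The cells were first-passage primary cultures of urogenital sinus mesenchyme from male CD-1 fetuses on gestation day 17, from which the epithelial cells had been removed by settling. After 3 days in medium with hormone-stripped serum, cells received ethanol vehicle, 10 pM E2 or 100 pM E2 for 4 days, and 690 pM dihydrotestosterone (DHT) was present in every group throughout. RNA of each of 3 samples per group was hybridized to 1 Affymetrix Mouse Gene 1.0 ST array, giving 9 arrays. No group was without DHT, so every value describes androgen-treated cells, and the sources used here do not say whether the 3 samples of a group were separate cell preparations or whether fetuses were pooled, so the p-values below cover no more than the spread among these 3 samples of a group, which may be technical.

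In the fetal prostate the mesenchyme reduces testosterone to DHT, the stronger androgen, and enzymes of the aldo-keto reductase and 17β-hydroxysteroid dehydrogenase families then turn DHT into weaker androstanediols or oxidize steroids at the hydroxyl group. Estradiol is inactivated by oxidation to estrone or by transfer of a sulfate group, since sulfated estrogen does not bind the estrogen receptor. Such enzymes can thus change how much of the supplied hormone stays active in a cell. Hormone levels and enzyme activities were not part of these data.

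The sequences before the transcription starts of Akr1c14 and Sult1e1 are shown because these genes were the enzymes whose expression differed at 100 pM E2, and that of Akr1c18 because it is the neighbour and relative of Akr1c14 on chromosome 13. Each is the stretch of 250 bases that ends just before the start in RefSeq (build GRCm38.p6), on the strand of the gene, 5′ to 3′. Capitals mark the motif GGTCA, which is 1 arm of the estrogen response element and reads TGACC on the other strand.
Akr1c14, chr13:4059341-4059590, plus strand: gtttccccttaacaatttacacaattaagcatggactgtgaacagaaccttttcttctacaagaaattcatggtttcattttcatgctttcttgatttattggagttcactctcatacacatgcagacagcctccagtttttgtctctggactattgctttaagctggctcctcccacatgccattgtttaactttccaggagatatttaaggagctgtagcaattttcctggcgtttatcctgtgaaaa
Akr1c18, chr13:4150647-4150896, minus strand: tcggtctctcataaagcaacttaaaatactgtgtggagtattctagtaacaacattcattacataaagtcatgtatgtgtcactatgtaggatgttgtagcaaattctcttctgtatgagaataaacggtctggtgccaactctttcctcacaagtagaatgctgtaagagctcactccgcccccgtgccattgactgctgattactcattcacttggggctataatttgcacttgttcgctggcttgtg
Sult1e1, chr5:87591612-87591861, minus strand: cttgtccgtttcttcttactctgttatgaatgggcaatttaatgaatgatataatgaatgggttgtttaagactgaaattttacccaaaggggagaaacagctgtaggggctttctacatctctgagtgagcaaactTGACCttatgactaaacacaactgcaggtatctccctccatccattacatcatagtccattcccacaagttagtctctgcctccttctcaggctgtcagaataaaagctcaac

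Promoter entries were found for 5 of the 7 enzymes, Akr1c14, Akr1c18, Sult1e1, Srd5a3 and Hsd17b11, and none were used for Cyp7b1 and Hsd17b2. Windows of 250 bases before to 50 bases after the start were searched on both strands for the palindromic estrogen response element, GGTCANNNTGACC, the androgen response element, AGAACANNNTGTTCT, and the single arm GGTCA, which is contained in each estrogen response element. Neither palindrome was found in any of the 5 windows, and they occurred in 0.07% and 0.00913% of 32851 promoters. A single arm was present once in Sult1e1, at position -113 on the opposite strand, and once in Akr1c18, at position 29 after the start. It was found in 40.5% of all promoters and in none of the windows of Akr1c14, Srd5a3 and Hsd17b11. These matches are descriptions of the letters in these windows only.

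At 100 pM E2, expression of 1 enzyme gene rose and that of another fell. Akr1c14, which inactivates DHT, was 2.16-fold higher at 100 pM E2 than in vehicle, and Sult1e1, which inactivates estradiol, was at 0.661 of its vehicle level. The limma test called both of these among the 7 enzymes at a Benjamini-Hochberg adjusted p below 0.05, against 1.13% of all genes. In each direction this was 1 of 7 enzymes, against 0.446% of all genes called higher and 0.687% called lower. The enzymes were chosen with earlier results of these data known, so these shares cannot measure an enrichment. An unadjusted p below 0.05 was also found for 2 enzymes, against 10.9% of all genes. No overlap between 100 pM and vehicle arrays was seen for Akr1c14 and Sult1e1, against 12.5% of all genes. For the other 5 enzymes arrays of the groups overlapped, the smallest adjusted p was 0.587, and the 95% intervals of the log2 difference all lay between -0.31 and 0.19. Neither Akr1c14 nor Sult1e1 was called over all probesets (limma adjusted p = 0.117 and 0.0512), with only the compared groups fitted (0.186 and 0.0695) or in the linear model without variance moderation (0.195 and 0.108). The median difference over the 7 enzymes was -0.03, and over all genes it was 0.00.

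**Figure D1:**
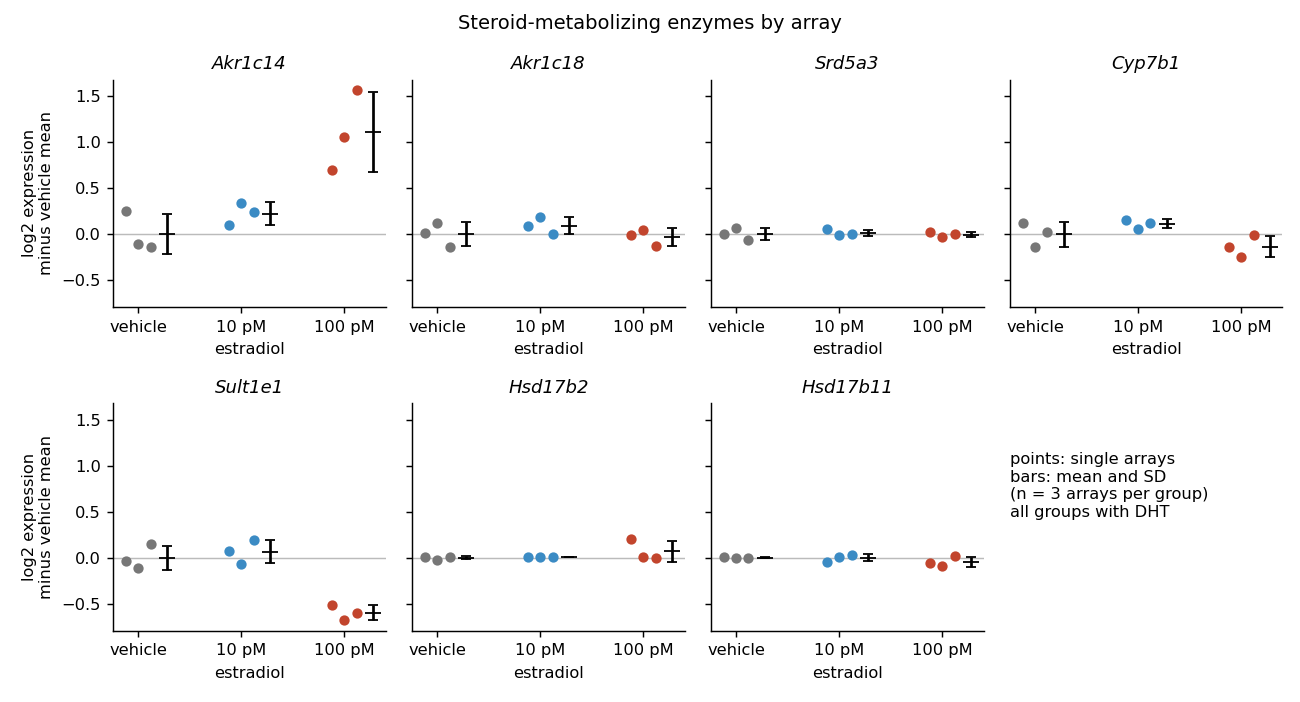
Log2 expression minus the vehicle mean (y axis, log2 units) for the 7 enzymes by dose of E2 (x axis, vehicle, 10 pM and 100 pM). Each point is 1 array, and the mean of a group is drawn with its SD (n = 3). Akr1c14 was highest on all 3 arrays at 100 pM E2 and Sult1e1 lowest, whereas the arrays of the groups mostly overlapped for the other 5 enzymes.

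Akr1c14 is the mouse 3α-hydroxysteroid dehydrogenase that reduces DHT to an androstanediol, a weaker androgen. Its log2 expression was 4.43, 4.08 and 4.05 on the vehicle arrays, 4.28, 4.52 and 4.43 on the 10 pM arrays, and 4.89, 5.24 and 5.75 on the 100 pM arrays. All 100 pM arrays lay above every other array, whereas the 10 pM arrays overlapped those of vehicle. The SD was 0.21 in vehicle, 0.12 at 10 pM and 0.44 at 100 pM (n = 3 each), with the third 100 pM array the highest of its group.

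The log2 difference of Akr1c14 between 100 pM E2 and vehicle was 1.11 ± 0.20 (SE, n = 3 arrays per group, limma adjusted p = 0.0349). Between 100 pM and 10 pM E2 it was 0.89 ± 0.20 (limma adjusted p = 0.0978), not past the threshold although arrays did not overlap, and between 10 pM E2 and vehicle it was 0.22 ± 0.20 (limma adjusted p = 1). The F test over the 3 groups did not call the gene (limma adjusted p = 0.0657). The signal was dim, since Akr1c14 belonged to the 30% of genes with the lowest mean over the arrays. The call against vehicle was lost without the first, the second or the third vehicle array (limma adjusted p = 0.0706, 0.121 and 0.145), without the first, the second or the third 10 pM array (limma adjusted p = 0.0727, 0.0729 and 0.0795) and without the second 100 pM array (limma adjusted p = 0.127), while the difference with any 1 array left out stayed between 0.88 and 1.31.

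The Akr1c genes form a cluster on chromosome 13, in which RefSeq places Akr1c14 next to Akr1c18 and then Akr1c13, Akr1c19, Akr1c12 and Akr1c6. Akr1c18 encodes the 20α-hydroxysteroid dehydrogenase that inactivates progesterone. Its log2 expression was 3.99, 4.10 and 3.84 on the vehicle arrays, 4.06, 4.17 and 3.98 on the 10 pM arrays, and 3.97, 4.03 and 3.84 on the 100 pM arrays, so that all 3 groups overlapped. The difference of Akr1c18 between 100 pM E2 and vehicle was -0.03 (95% interval -0.21 to 0.15, limma adjusted p = 0.925).

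Of the 6 further Akr1c genes measured, none was called by limma in any contrast. Between 100 pM E2 and vehicle 1.13% of all genes were called, so a count of 0 among 6 genes lies near that share. All 6 were among the dimmest 30% of genes, and 5 of them repeated an exact value between arrays. Their differences between 100 pM E2 and vehicle lay between -0.11 and 0.03, with intervals between -0.28 and 0.16. Akr1c14 was the 1 called gene of the 8 Akr1c genes measured, but the difference between its response and those of its relatives was not tested. Whether the Akr1c14 probeset also binds transcripts of its relatives was not tested.

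Sult1e1 encodes the estrogen sulfotransferase, which adds sulfate to estradiol and estrone at low concentrations of these hormones. Its log2 expression was 7.47, 7.39 and 7.65 on the vehicle arrays, 7.57, 7.44 and 7.69 on the 10 pM arrays, and 6.99, 6.82 and 6.90 on the 100 pM arrays. The 100 pM arrays were below all others and the remaining groups overlapped each other. The spread was alike in the groups, with SD of 0.13 in vehicle, 0.13 at 10 pM and 0.08 at 100 pM (n = 3 each).

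The difference of Sult1e1 was -0.60 ± 0.08 between 100 pM E2 and vehicle (SE, n = 3 arrays per group, limma adjusted p = 0.0117) and -0.67 ± 0.08 between 100 pM and 10 pM E2 (limma adjusted p = 0.0108). Between 10 pM E2 and vehicle it was 0.07 ± 0.08 (limma adjusted p = 1). The call against vehicle was lost without the first vehicle array (limma adjusted p = 0.0573) or the second 100 pM array (limma adjusted p = 0.0563), and that between the doses without the first or the third 10 pM array (limma adjusted p = 0.0656 and 0.057). Leaving out any 1 array kept the difference from vehicle between -0.66 and -0.53.

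On chromosome 5, Sult1e1 follows Sult1b1 and Sult1d1, which encode related sulfotransferases with other preferred substrates. Sult1b1 differed by 0.08 (95% interval -0.07 to 0.24) and Sult1d1 by -0.08 (95% interval -0.27 to 0.11) between 100 pM E2 and vehicle, neither being called by limma. The enzymes that make the sulfate donor for Sult1e1 were not called either, and Papss1 differed by 0.03 between 100 pM E2 and vehicle.

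**Figure D2:**
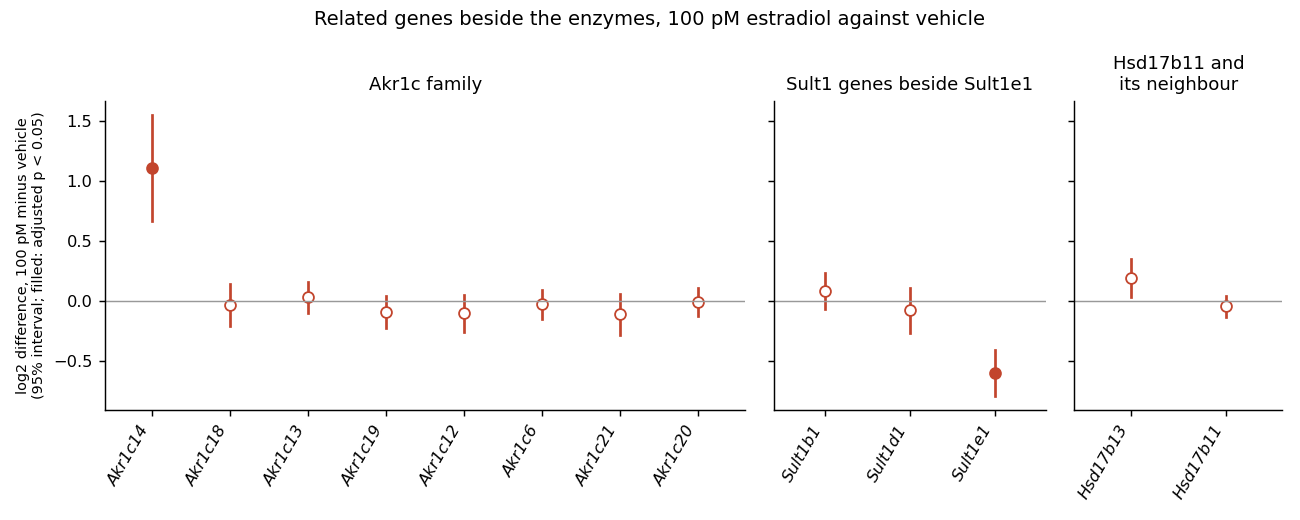
Log2 difference of 100 pM E2 minus vehicle (y axis, log2 units, bars are 95% limma intervals, n = 3 arrays per group) for the Akr1c family, for Sult1e1 with the sulfotransferase genes beside it, and for Hsd17b11 with Hsd17b13 (x axis, genes). Filled points, called at an adjusted p below 0.05, are Akr1c14 (1.11) and Sult1e1 (-0.60), and the intervals of the other genes except Hsd17b13 include 0.

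Hsd17b2 and Hsd17b11 encode dehydrogenases that oxidize steroids at position 17, Hsd17b2 turning estradiol into estrone and testosterone into androstenedione, and Hsd17b11 acting on androstanediol. Expression of Hsd17b2 was 4.92, 4.89 and 4.92 on the vehicle arrays, 4.91, 4.92 and 4.92 on the 10 pM arrays, and 5.11, 4.92 and 4.91 on the 100 pM arrays. Only the first 100 pM array stood above the rest, and the 9 arrays held 5 distinct values. Exact repeats of a value between arrays occurred for 81.6% of the dimmest 30% of genes, to which Hsd17b2 belonged, and for 68.8% of the other genes.

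The difference of Hsd17b2 between 100 pM E2 and vehicle was 0.07 ± 0.05 (SE, n = 3 arrays per group, limma adjusted p = 0.688). Hsd17b11 was measured at 8.52, 8.51 and 8.52 on the vehicle arrays, 8.47, 8.53 and 8.54 on the 10 pM arrays, and 8.45, 8.42 and 8.53 on the 100 pM arrays, with all groups overlapping. Its difference between 100 pM E2 and vehicle was -0.04 (95% interval -0.13 to 0.05, limma adjusted p = 0.74). Hsd17b13, the neighbour of Hsd17b11 on chromosome 5, differed by 0.19 ± 0.07 (limma adjusted p = 0.351).

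Srd5a3 belongs to the steroid 5α-reductase family by sequence and reduces polyprenol for protein glycosylation. Its difference between 100 pM E2 and vehicle was the smallest of the 7 enzymes. Values were 8.02, 8.08 and 7.95 on the vehicle arrays, 8.07, 8.00 and 8.02 on the 10 pM arrays, and 8.03, 7.98 and 8.02 on the 100 pM arrays, and the difference between 100 pM E2 and vehicle was -0.00 (95% interval -0.10 to 0.09, limma adjusted p = 0.985).

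Cyp7b1 encodes an oxysterol hydroxylase that also clears DHT-derived androstanediols. Its expression was 8.57, 8.30 and 8.47 on the vehicle arrays, 8.61, 8.51 and 8.56 on the 10 pM arrays, and 8.30, 8.20 and 8.43 on the 100 pM arrays. Arrays at 100 pM lay below all arrays at 10 pM but overlapped those of vehicle. The differences were -0.25 ± 0.08 between 100 pM and 10 pM E2 (SE, n = 3 arrays per group, limma adjusted p = 0.284), -0.14 ± 0.08 between 100 pM E2 and vehicle (limma adjusted p = 0.587) and 0.11 ± 0.08 between 10 pM E2 and vehicle (limma adjusted p = 1), none past the threshold.

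At 10 pM E2, limma called 0 of the 7 enzymes against vehicle, 0 had an unadjusted p below 0.05 (against 3.54% of all genes), and the linear model without variance moderation called 0 as well. Over all genes limma called 0%. Arrays of 10 pM E2 and vehicle overlapped for all 7 enzymes, against 5.93% of genes without overlap. The intervals of the 5 enzymes other than Akr1c14 and Sult1e1 lay between -0.11 and 0.29, and that of Akr1c14 reached from -0.22 to 0.67. Akr1c14 differed by 0.22 and Sult1e1 by 0.07 at 10 pM E2, beside 1.11 and -0.60 at 100 pM E2, and both comparisons share the vehicle arrays.

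Between 100 pM and 10 pM E2, limma called 1 of the 7 enzymes, Sult1e1, against 0.833% of all genes. It was lower, as were 0.607% of all genes, and 0 enzymes were called higher, against 0.226%. For 3 enzymes the unadjusted p was below 0.05, against 10.2% of all genes. The doses had no arrays in overlap for the same 3, Akr1c14, Sult1e1 and Cyp7b1, against 12.3% of all genes. A contrast of 10 pM E2 against the mean of 100 pM E2 and vehicle was also tested. Its value departs from 0 for a response that turns between the doses and for 1 confined to 100 pM E2. The contrast alone therefore cannot tell these shapes apart. This contrast was 0.37 ± 0.07 for Sult1e1 (SE, n = 3 arrays per group, limma adjusted p = 0.311), 0.18 ± 0.07 for Cyp7b1 (limma adjusted p = 0.838) and -0.33 ± 0.17 for Akr1c14 (limma adjusted p = 0.915). Means of Akr1c14 rose with dose, from 4.19 in vehicle to 4.41 at 10 pM and 5.29 at 100 pM E2. For Sult1e1 the difference between 10 pM E2 and vehicle was 0.07 ± 0.08. The contrast was positive for Sult1e1 and Cyp7b1 but not called for either, and limma called 0 of the 7 enzymes, 2 of them having an unadjusted p below 0.05, against 0.00502% of all genes called and 5.61% below that unadjusted p. The F test over the 3 groups called Sult1e1 (limma adjusted p = 0.012), which made 1 of 7 enzymes against 0.843% of all genes, and 3 of 7 had an unadjusted p below 0.05, against 9.15%.

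**Figure D3:**
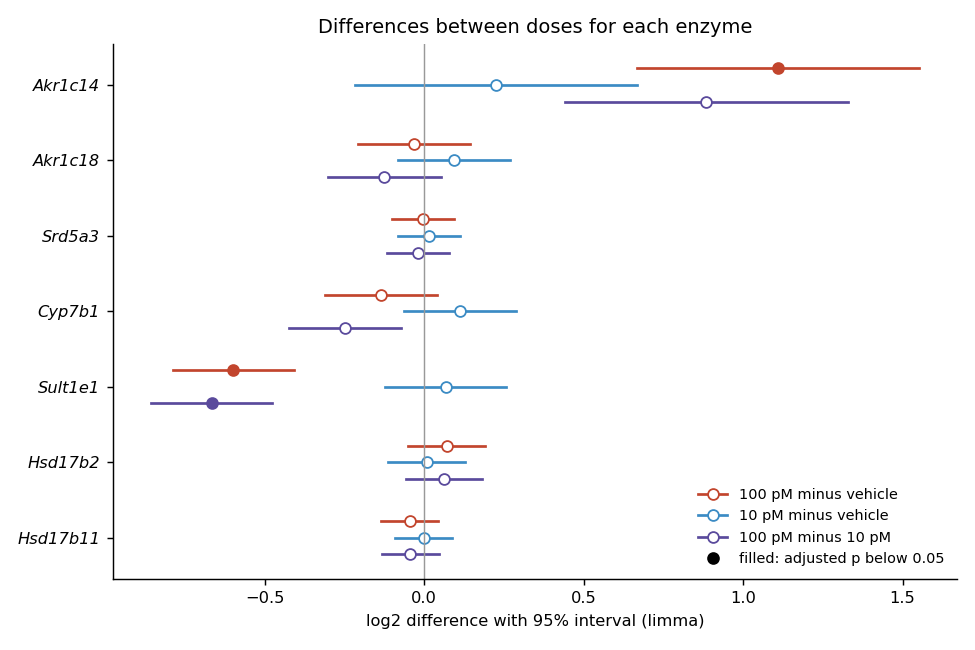
Log2 differences with 95% limma intervals (x axis, log2 units) of the 7 enzymes (y axis) for 100 pM E2 minus vehicle, 10 pM E2 minus vehicle and 100 pM minus 10 pM E2, where filled points passed an adjusted p below 0.05 (n = 3 arrays per group). Sult1e1 passed in both comparisons of 100 pM E2 (-0.60 and -0.67) and Akr1c14 against vehicle (1.11), and no enzyme passed at 10 pM E2.

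A wider set of 57 genes in 7 lists covered the rest of steroid metabolism, and 51 of these were measured. Between 100 pM E2 and vehicle, 1 rose and 0 fell among the 51, against 0.446% of all genes called higher and 0.687% called lower, and 7 had an unadjusted p below 0.05, against 10.9% of all genes. The median difference was 0.01, and 28 of the 51 were among the dimmest 30% of genes. The gene that rose was Cyp11b1, the mitochondrial hydroxylase that completes glucocorticoid synthesis in the adrenal cortex. Its log2 expression was 6.26, 6.35 and 6.05 on the vehicle arrays, 6.42, 6.35 and 6.29 on the 10 pM arrays, and 6.83, 6.85 and 6.85 on the 100 pM arrays. The 100 pM arrays were above all others and nearly equal to each other.

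Cyp11b1 differed by 0.63 ± 0.07 between 100 pM E2 and vehicle (SE, n = 3 arrays per group, limma adjusted p = 0.00399) and by 0.49 ± 0.07 between 100 pM and 10 pM E2 (limma adjusted p = 0.0172). The difference from vehicle stayed called with any 1 array left out (limma adjusted p at most 0.0266), but not with only the compared groups fitted (0.0569) or without variance moderation (0.0618). Cyp11b2, its close relative and neighbour on chromosome 15, differed by 0.12 ± 0.07 between 100 pM E2 and vehicle (limma adjusted p = 0.575). The earlier steps of steroid synthesis were not called, and the measured markers of steroid-producing gonad or adrenal cells, Star, Cyp11a1, Cyp17a1, Hsd3b1, Hsd3b6 and Nr5a1, held 5 of 6 genes among the dimmest 30%. The call between the doses was lost without the first, the second or the third 10 pM array (limma adjusted p = 0.0664, 0.0869 and 0.0903) and without the second or the third 100 pM array (limma adjusted p = 0.069 and 0.0509), and also over all probesets (0.067), with only the compared groups fitted (0.0572) and without variance moderation (0.135).

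No gene of the remaining 6 lists was called by limma in any contrast. Among the other 17β-hydroxysteroid dehydrogenases, 0 of 9 were called, 2 had an unadjusted p below 0.05 between 100 pM E2 and vehicle (against 10.9% of all genes), and the differences of lowest F test p were 0.28 ± 0.06 for Hsd17b7 (95% interval 0.13 to 0.42, limma adjusted p = 0.108, arrays not overlapping), which also serves cholesterol synthesis, and 0.19 for Hsd17b13. Of 3 genes for catechol estrogens, Cyp1b1, which hydroxylates estradiol, differed by 0.21 ± 0.05 between 100 pM E2 and vehicle (limma adjusted p = 0.0996). Its arrays did not overlap in any comparison between groups. Cyp1a1 differed from vehicle by -0.02 at 100 pM E2 and by -0.17 at 10 pM E2. Among 6 oxysterol hydroxylases and related genes, Hsd3b7 differed by -0.09 and Ch25h, which makes an oxysterol, by 0.02 between 100 pM E2 and vehicle. In that comparison 1 of the 6 had an unadjusted p below 0.05, against 10.9% of all genes. It was Cyp27a1, with a difference of -0.14 (limma adjusted p = 0.407) and arrays not overlapping, against 12.5% of all genes. Ch25h differed by 0.19 between 10 pM E2 and vehicle (limma adjusted p = 1). Between 100 pM and 10 pM E2, Hsd3b7 differed by -0.15 and Ch25h by -0.17 (limma adjusted p = 0.304 and 0.434), with arrays not overlapping.

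Of 9 other aldo-keto reductases and 3α-hydroxysteroid enzymes, Rdh16 differed by 0.10 and Akr1d1 by -0.01 between 100 pM E2 and vehicle, with 0 at an unadjusted p below 0.05. Between 10 pM E2 and vehicle, Rdh16 differed by 0.19 and Akr1d1 by 0.07, neither called. Of 3 genes that interconvert glucocorticoids, Hsd11b2, which inactivates them, differed by 0.22 ± 0.09 (limma adjusted p = 0.433) and H6pd by 0.04. The 7 measured genes of the sulfation and desulfation list had a median difference of 0.03 between 100 pM E2 and vehicle. In that comparison 0 had an unadjusted p below 0.05, against 10.9% of all genes. Between 100 pM and 10 pM E2 it was 1, Sult1b1 (difference 0.17, limma adjusted p = 0.423), against 10.2% of all genes. All 7 were sulfotransferase or sulfate donor genes, and no desulfating enzyme was measured.

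**Figure D4:**
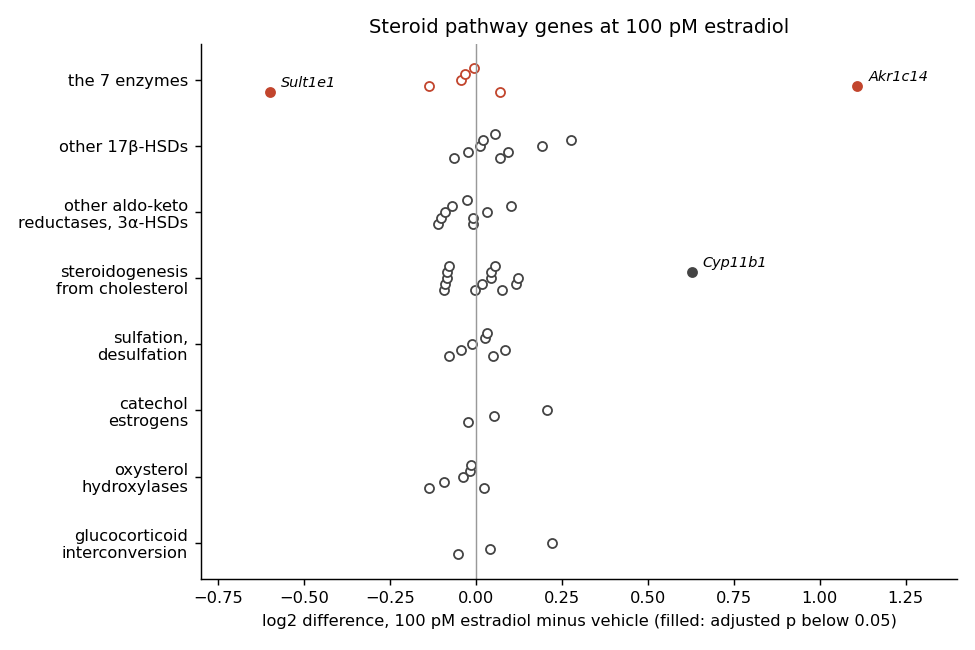
Log2 difference of 100 pM E2 minus vehicle (x axis, log2 units) for the 7 enzymes and for 51 further genes of steroid metabolism in 7 lists (y axis), each point being 1 gene. The filled points, called at an adjusted p below 0.05, are Akr1c14, Sult1e1 and Cyp11b1, and the other points lie between -0.14 and 0.28.

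The receptors and targets of these hormones give the context. Pgr, a classical estrogen target, differed by 1.04 ± 0.11 between 100 pM E2 and vehicle (SE, n = 3 arrays per group, limma adjusted p = 0.00359) and by 0.46 ± 0.11 between 10 pM E2 and vehicle (limma adjusted p = 1), where Akr1c14 differed by 1.11 and 0.22. Esr1, which encodes the estrogen receptor alpha, differed by 0.21 ± 0.05 between 100 pM E2 and vehicle (limma adjusted p = 0.0997). Between 10 pM E2 and vehicle it differed by 0.10 ± 0.05 and was not called. For both Pgr and Esr1 the arrays of each dose lay above all vehicle arrays. Arrays did not overlap for 12.5% of all genes at 100 pM E2 and 5.93% at 10 pM E2.

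The genes whose values over the 9 arrays were closest to each called enzyme were found by the root mean square difference of log2 values centred on each gene. Closest to Akr1c14 were Rxfp2, the receptor of the testicular hormone INSL3, with a root mean square difference of 0.156, Glp1r, the receptor of an incretin hormone, with 0.196, and Dkk2, a secreted Wnt modulator, with 0.209. Rxfp2 differed by 0.99 between 100 pM E2 and vehicle (limma adjusted p = 0.0654), Glp1r by 0.85 (limma adjusted p = 0.0516) and Dkk2 by 0.96 (limma adjusted p = 0.00359). Closest to Sult1e1 were Fmo1, a flavin monooxygenase, with 0.0828, A2m, a protease inhibitor, with 0.0884, and Cdc42ep3, an effector of a small GTPase, with 0.0984. These 3 differed by -0.56, -0.72 and -0.60 between 100 pM E2 and vehicle (limma adjusted p = 0.00841, 0.00399 and 0.00359). The measure chose these genes, so their differences are descriptions.

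**Figure D5:**
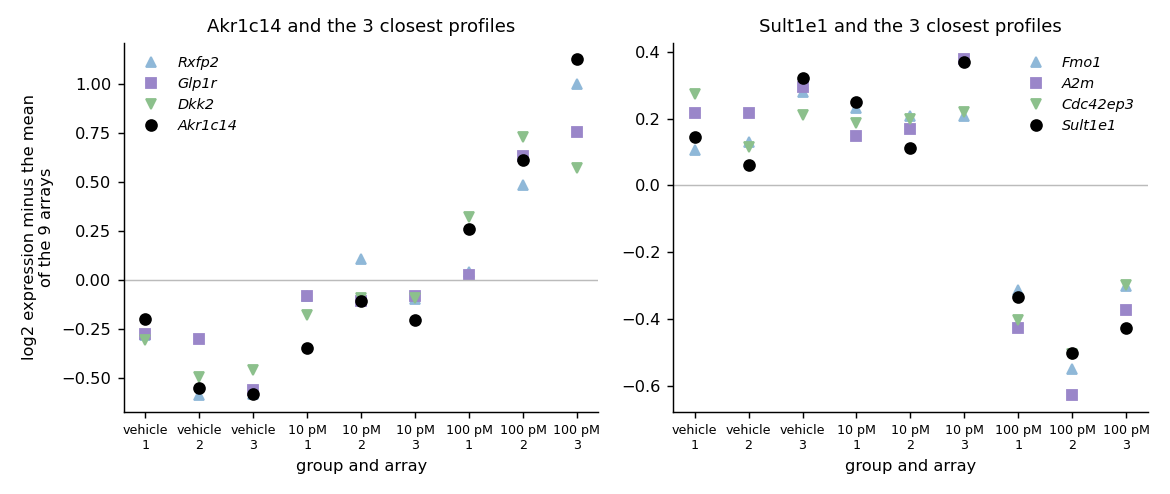
Log2 expression minus the mean of the 9 arrays (y axis, log2 units) on each array of the vehicle, 10 pM and 100 pM groups (x axis) for Akr1c14 and Sult1e1 (black circles) and for the 3 genes closest to each (coloured symbols). Akr1c14 is highest on the 3 arrays at 100 pM E2 (4.89, 5.24 and 5.75 before centring) and Sult1e1 lowest on them (6.99, 6.82 and 6.90).

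Arrays were much alike, with medians over all probesets between 6.17 and 6.20 and correlations across genes between 0.996 and 0.998 for pairs of different groups. All 10 mesenchymal markers were above the dimmest 30% of genes. Within it were 3 of 10 epithelial, 2 of 10 macrophage and 3 of 8 endothelial markers, where 30% of all genes fall by definition. The other 7 epithelial, 8 macrophage and 5 endothelial markers were above it. Some marker lists also differed between 100 pM E2 and vehicle. The mean log2 level of the macrophage list was 5.62 to 5.67 on the 100 pM arrays, against 5.85 to 6.00 on the vehicle arrays. Of its markers, 1 of 10 was called lower at 100 pM E2, and the median difference was -0.16. At 10 pM E2, where no enzyme was called, that median difference was already -0.14. There 4 of 10 macrophage markers had an unadjusted p below 0.05, against 3.54% of all genes, and 0 were called. The mesenchymal list was at 10.92 to 10.99 on the 100 pM arrays, against 11.07 to 11.09 on the vehicle arrays, with 4 of 10 called lower. Its median difference at 100 pM E2 was -0.03. Over all genes, 0.687% were called lower and 0.446% higher between 100 pM E2 and vehicle. The epithelial list was at 6.09 to 6.21 on the 100 pM arrays, against 6.03 to 6.12 on the vehicle arrays, and the smooth muscle list at 11.36 to 11.44, against 11.38 to 11.45 on the vehicle arrays, with 0 called in either. The endothelial list was at 5.93 to 5.95 on the 100 pM arrays, against 5.98 to 6.05 on the vehicle arrays, with 1 of 8 markers called higher and 1 lower. The part of these markers in the results for Akr1c14, Sult1e1 and Cyp11b1 was not tested, and fewer cells of a type and less RNA per cell cannot be told apart in these bulk samples.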

How the data were processed

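RNA of mesenchymal cells of the fetal mouse prostate was measured on 9 Affymetrix Mouse Gene 1.0 ST arrays. The authors converted the scanned images with GCOS and Gene Expression Console, and the deposited table holds log2 expression per probeset, with genes not centred. Their range identified the scale as log2, and the method of summarization and normalization is not given in the sources used here. The number of arrays limits precision.

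Of 35556 probesets, a single symbol was annotated for 21789, more than 1 symbol for 1621 (left unnamed) and none here for 12146. The current gene table held the Entrez identifier of 21698. The probeset of highest mean was taken for each of 19938 genes. A model of group means over the 9 arrays was fitted in R 4.3.3 with lmFit and eBayes of limma 3.58.1 (two-sided), p-values were adjusted by Benjamini-Hochberg over all genes, and the procedure was tested on simulated data. Figures were drawn with matplotlib 3.10.9. The enzymes, the lists and the rule for named genes were chosen with earlier results of these data known. From each list, genes called at an adjusted p below 0.05 or, where none was called, the 2 of smallest F test p were named, besides Esr1 and Pgr as context and the 3 genes closest to each called enzyme. A further gene of the rule is not reported here. Further Akr1c genes, Sult1d1 and Cyp11b2 were named as relatives or neighbours after their values were seen, and Cyp27a1 for its unadjusted p. No protein sequences were used here. Alternatives were centring, quantile normalization, a filter on dim genes, all probesets, the mean of probesets, eBayes with trend and robust, a replicate block, fits of the compared groups, an unmoderated linear model, an adjusted p below 0.10 and leaving out arrays.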

Additional observations from a re-analysis of the deposited data

Results flagged for a closer look

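Sult1e1 differed between the doses, since the direct limma test of 100 pM against 10 pM E2, which is the difference of both doses' effects against the shared vehicle arrays, gave a log2 difference of -0.67 with an SE of 0.08 (adjusted p = 0.0108, 3 arrays in each group). All 3 arrays at 100 pM E2 were lower than all 3 at 10 pM E2. The call was lost over all probesets (limma adjusted p = 0.0526) and with only the compared groups fitted (0.0714). It was also lost without the second vehicle and second 100 pM arrays (0.0741) and without the first or the third 10 pM array (0.0656 and 0.057). In the linear model without moderation the adjusted p was 0.112.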

How the results depend on the processing

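No difference of the 7 enzymes past the threshold changed sign under any alternative run. Between 100 pM E2 and vehicle, 2 enzymes were called, 1 without the dimmest 30% of genes (Akr1c14 was then not tested), 1 with the replicate block, 0 over all probesets, 0 with only the compared groups fitted, 0 in the linear model without moderation, 0 without the second vehicle and second 100 pM arrays, and 0 to 2 with 1 array left out. Between 100 pM and 10 pM E2, 1 was called, 0 over all probesets, 0 with only the compared groups, 0 without moderation, 0 without the 2 arrays, 2 at an adjusted p below 0.10, and 0 to 2 with 1 array left out. For the F test, 1 was called, 0 over all probesets, 0 without moderation, 0 without the 2 arrays, 2 with trend and robust, 2 at an adjusted p below 0.10, and 0 to 2 with 1 array left out. Over all alternatives, the difference between 100 pM E2 and vehicle lay between 0.88 and 1.31 for Akr1c14 (limma adjusted p between 0.0137 and 0.281) and between -0.66 and -0.53 for Sult1e1 (adjusted p between 0.00436 and 0.108, the highest from the linear model without moderation). The adjustment over all probesets is over more features and the fits of fewer arrays rest on fewer degrees of freedom. For the other changes the cause was not tested. Cyp11b1 between the doses had a limma adjusted p of 0.0764 without the 2 arrays. Over all genes, 226 were called between 100 pM E2 and vehicle, 343 without the dimmest 30%, 119 over all probesets, 349 with trend and robust, 365 at an adjusted p below 0.10, 10 with only the compared groups, 30 without moderation, 76 without the 2 arrays, and 88 to 259 with 1 array left out. The exclusion of the 2 arrays together was chosen after seeing the data. Over all genes, deviations of same-numbered arrays from their group means had r between -0.11 and 0.20, above 0.1 in 1 of 9 pairs. The numbers were therefore not taken to pair the samples. Single genes could still follow the numbers, as Akr1c18 had the same order of arrays in all 3 groups. Under the replicate block Akr1c14 had a limma adjusted p of 0.0781 between 100 pM E2 and vehicle.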
